A study of Homo sapiens with 13 samples.

Results

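Expression of 10 core genes of the Notch pathway was followed in human embryonic stem cells treated with BMP4. They comprised the receptors NOTCH1, NOTCH2 and NOTCH3, the ligands DLL1, DLL3, DLL4, JAG1 and JAG2, the glycosyltransferase LFNG, and the feedback gene NRARP. The genes were picked by symbol, and each was found among the 61546 features of each count table. Over 42 h of BMP4 with a blocker of Wnt secretion, the ligand DLL1 rose while DLL3, LFNG and NOTCH1 fell. At 5 h NRARP and NOTCH1 rose with the dose of a BMP receptor inhibitor.

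Notch signaling passes between touching cells. A ligand on one cell pulls on a receptor on its neighbor, the receptor is cut by ADAM proteases and γ-secretase, and the freed intracellular domain enters the nucleus, where it joins the DNA-binding protein RBPJ and MAML coactivators to switch on targets such as the HES and HEY repressors. Fringe enzymes such as LFNG add sugars to the receptor that change which ligands it answers to, and NRARP is a target that dampens the signal by acting on the intracellular domain.

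The cells were GFP::SMAD4 RUES2, an embryonic stem cell line whose SMAD4, the shared partner of BMP-activated SMADs, is fused to GFP in every group. In the time series, cells received 100 ng/mL BMP4 with 5 µM IWP2, which blocks Wnt secretion, and ROCK inhibitor, and were collected at 0 h (2 libraries) and at 4, 12, 20, 28 and 42 h (1 library each). This treatment also stands in the labels at 0 h, which were read as cells taken when it began. The time series held no untreated library after 0 h, so BMP4, IWP2 and time in culture cannot be told apart over hours. In the dose response, all cells were collected at 5 h: 5 libraries received the same BMP4 and IWP2 with 0, 10, 30, 100 or 300 nM of the BMP receptor inhibitor LDN-193189 (LDN), and 1 library came from untreated cells in mTeSR without BMP4 or IWP2. The time-series libraries were depleted of ribosomal RNA, whereas the dose-response libraries were selected for polyA and extracted with another kit. Only 0 h was replicated, no source used here says whether its 2 libraries came from separate cultures, and the p-values below measure scatter about a fitted line.

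The libraries held 37957385 to 71333471 counts in the time series and 15600931 (untreated) to 33989998 in the dose response, so that 3 counts, the floor used here, equaled 0.042 to 0.192 CPM (counts scaled to a common library total). Counting intervals and floors cover counting error only. Mitochondrial genes took 7.60% and 4.29% of the counts at 0 h, 2.01 to 4.23% later, 4.22 to 4.49% with BMP4 at 5 h and 7.89% in the untreated library. The summed level of 5 pluripotency markers was 2205 and 2851 CPM at 0 h and 1170 CPM at 42 h. POU5F1 made up most of that sum at 42 h (1145 CPM), and it had 1003 and 1721 CPM at 0 h. SOX2 went from 389 and 375 CPM to 11.6 CPM, and TDGF1 from 613 and 576 CPM to 11.7 CPM. NANOG went from 146 and 116 CPM to 1.08 CPM, and PRDM14 from 53.7 and 63.9 CPM to 0.196 CPM. Over the same span the sum of 5 amnion-like markers went from 10.8 and 11.2 CPM to 3921 CPM. Summed neural markers (4 genes) stayed at or below 1.68 CPM, primitive streak and mesoderm markers (6 genes) at or below 8.51 CPM, and endoderm markers (2 genes) at or below 3.97 CPM. Of 3 endothelial markers only KDR reached 1 CPM, with 68.2 and 60.4 CPM at 0 h and 6.06 CPM at 42 h. Because these are bulk samples, fewer cells of a type and less RNA per cell cannot be told apart.

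Trends over hours were fitted with edgeR to the 15976 genes whose mean reached 1 CPM. Of the 10 Notch genes 9 passed that minimum, and DLL4 did not. DLL1 was the 1 gene that rose along a line, where 19.2% of all genes tested rose, and DLL3, LFNG and NOTCH1 were the 3 that fell, where 17.5% of all genes fell. The median fitted change of the 9 genes was -0.52 on the log2 scale over 42 h, beside -0.0047 over all genes. When a curve was allowed (hours and hours squared), 5 of the 9 changed, namely these 4 and NOTCH2, where 47.7% of all genes did. The pluripotency and amnion-like markers moved over the same hours, and their part in these results was not tested.

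DLL1 (ENSG00000198719, 11 exons, GRCh38 chr6:170282206-170306565, minus strand) encodes a Delta ligand that activates Notch on neighboring cells. Its level was 6.11 and 6.71 CPM at 0 h, then 2.01 CPM (4 h), 2.72 CPM (12 h), 9.54 CPM (20 h), 39.9 CPM (28 h) and 48.2 CPM (42 h). The level at 4 h lay below both 0 h libraries, and those from 20 h on lay above them. At 12 h the measures differed. In CPM the library lay below the 0 h pair, but in FPKM, which is also scaled for transcript length, it lay between them (2.33 against 1.85 and 2.53). The 4 h library was 3.19-fold below the 0 h mean of 6.41 ± 0.426 (SD, n = 2), and the 42 h library was 7.51-fold above it. From the low at 4 h to 42 h the ratio was 24.0 (95% exact Clopper-Pearson counting interval, 19.5 to 29.9). The fitted rise was 3.83 (SE 0.84) on the log2 scale over 42 h (edgeR adjusted p = 0.00911). This call held in 15 of 16 alternative fits and was lost on a log2 scale of hours (edgeR adjusted p = 0.101). In the annotation, 370 of the 3819 exon bases of DLL1 are shared with FAM120B on the opposite strand. Whether counting used the strand is not given in the sources used here, and FAM120B itself had 30.3 and 28.2 CPM at 0 h, then 26.4, 26.5, 24.6, 28.3 and 31.1 CPM. The part of shared reads in the DLL1 values was not tested.

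**Figure D1:**
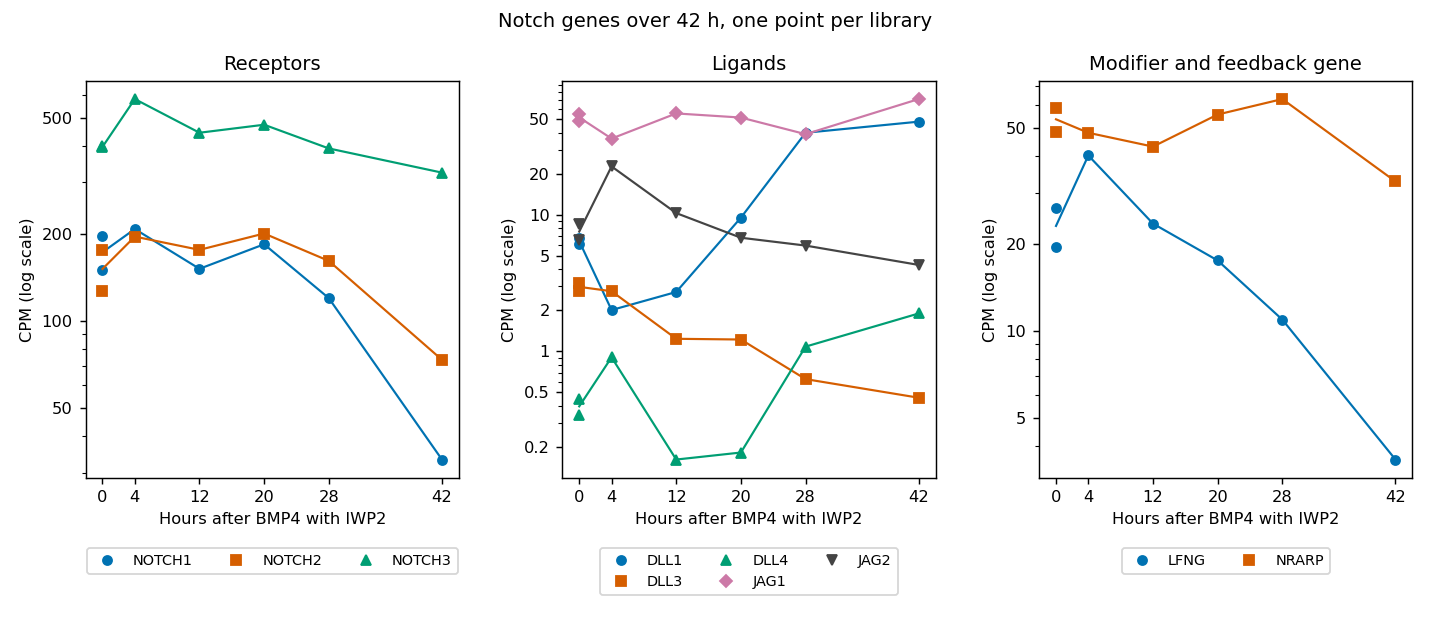
CPM (log axis) of the 10 Notch genes against hours after BMP4 with IWP2, in panels for receptors, ligands, and LFNG with NRARP; each point is 1 library, and lines join the mean of the 2 libraries at 0 h to the later libraries. DLL1 goes from 2.01 CPM at 4 h to 48.2 CPM at 42 h, while LFNG goes from 40.3 to 3.59 CPM and NOTCH1 from 207 to 33.3 CPM over the same interval.

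DLL3 (ENSG00000090932, 9 exons, chr19:39498895-39508481, plus strand) encodes a divergent Delta ligand known for acting inside the cell against Notch rather than activating it on neighbors. It measured 3.16 and 2.78 CPM at 0 h, then 2.76, 1.24, 1.22, 0.626 and 0.458 CPM from 4 to 42 h. Every library from 12 h on lay below the 0 h pair. The fitted fall was -2.63 (SE 0.38, edgeR adjusted p = 0.00141), and the 42 h library stood 6.49-fold below the 0 h mean. DLL1 and DLL3, both Delta ligands, thus had fitted lines of opposite sign in the same cells.

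DLL4 (ENSG00000128917, 11 exons, chr15:40929340-40939073, plus strand), a Delta ligand best known from blood vessels, was rare and did not reach the mean of 1 CPM that the trend tests required. It had 13 and 32 counts at 0 h, then 41, 9, 11, 64 and 116 counts in order of time, equal to 0.342, 0.449, 0.905, 0.161, 0.182, 1.08 and 1.896 CPM. The 12 and 20 h libraries were the lowest and the 28 and 42 h libraries the highest. The 42 h level was 4.79-fold the 0 h mean. In the alternative fit without a minimum, the line gave a fitted change of 2.21 (SE 0.73, edgeR adjusted p = 0.0531) and the curve passed (edgeR adjusted p = 0.000635). In that library the endothelial marker KDR was at its lowest in the time series (6.06 CPM), CDH5 was at its highest but rare (18 counts, 0.294 CPM) and PECAM1 had 0 counts, and their part in this was not tested.

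JAG1 (ENSG00000101384, 26 exons, chr20:10637684-10673999, minus strand), a Jagged ligand, was the most abundant ligand at 0 h both in CPM and per length. It measured 49.0 and 54.4 CPM at 0 h, then 36.2, 55.3, 51.6, 39.0 and 70.5 CPM in the later libraries. The values went down and up without order, and neither the line (fitted change 0.60, SE 0.31, edgeR adjusted p = 0.156) nor the curve (edgeR adjusted p = 0.0866) passed. JAG2 (ENSG00000184916, 26 exons, chr14:105140982-105168824, minus strand), its close relative, had 6.56 and 8.52 CPM at 0 h and then 22.6, 10.3, 6.80, 5.96 and 4.30 CPM from 4 to 42 h. A single library, that at 4 h, stood out, at 3.001-fold the 0 h mean of 7.54 ± 1.39 (SD, n = 2) and 2.66- to 3.45-fold the separate 0 h libraries. JAG2 passed neither the line nor the curve (edgeR adjusted p = 0.130 and 0.183).

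Among the receptors, NOTCH1 (ENSG00000148400, 34 exons, chr9:136494433-136546048, minus strand) changed most. It measured 196 and 149 CPM at 0 h, then 207 CPM (4 h), 151 CPM (12 h), 184 CPM (20 h), 119.8 CPM (28 h) and 33.3 CPM (42 h). Up to 20 h the levels overlapped or exceeded the 0 h pair, and the 28 and 42 h libraries lay below it. The fitted fall was -1.64 (SE 0.53, edgeR adjusted p = 0.0417), and the curve gave an edgeR adjusted p of 0.000866. The call of the line held in 9 of 16 alternative fits, among them those without 20 h and without 0 h replicate 2. Leaving out 0 h replicate 1, 4 h, 12 h or 28 h gave fitted changes of -1.61 to -1.88 with edgeR adjusted p = 0.0508 to 0.0848, and without 42 h the fitted change was -0.50 (edgeR adjusted p = 0.383). On a log2 scale of hours and on the rank of the time point it was lost too (edgeR adjusted p = 0.320 and 0.108). The curve passed in 13 of 14 alternative fits and was lost without 42 h (edgeR adjusted p = 0.459).

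NOTCH2 (ENSG00000134250, 34 exons, chr1:119911553-120100779, minus strand) measured 175 and 127 CPM at 0 h, then 195, 176, 200.1, 161 and 73.5 CPM from 4 to 42 h. Only the 42 h library lay below the 0 h pair, and the curve passed (edgeR adjusted p = 0.0112) while the line did not (fitted change -0.52, SE 0.40, edgeR adjusted p = 0.327). Without 42 h the curve did not pass (edgeR adjusted p = 0.498). NOTCH2 shares reads with the NOTCH2NL copies, of which NOTCH2NLC reached 23.6 CPM and NOTCH2NLA 4.76 CPM in the time series, so its level is uncertain by what counting assigned among them. NOTCH3 (ENSG00000074181, 33 exons, chr19:15159038-15200995, minus strand) was the most abundant receptor in all 13 libraries and measured 399 and 397 CPM at 0 h, then 581, 445, 474, 393 and 324 CPM. Its levels stayed within 1.46-fold of the 0 h mean in these libraries, and no change over hours was detectable (fitted change -0.16, SE 0.22, edgeR adjusted p = 0.605).

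LFNG (ENSG00000106003, 8 exons, chr7:2512529-2529177, plus strand), the lunatic fringe enzyme, measured 19.5 and 26.6 CPM at 0 h, then 40.3, 23.5, 17.5, 10.9 and 3.59 CPM from 4 to 42 h. The 4 h library was above both 0 h libraries, and each later one was lower than the one before it. The fitted fall was -2.49 (SE 0.50, edgeR adjusted p = 0.00654), and the 42 h library stood 11.2-fold below that at 4 h (95% counting interval, 9.74 to 12.95). Without 42 h the fitted change was -1.70 (edgeR adjusted p = 0.0696), and the line was also lost on a log2 scale of hours (edgeR adjusted p = 0.204). NRARP (ENSG00000198435, 1 exon, chr9:137299631-137302271, minus strand) measured 48.7 and 58.8 CPM at 0 h, then 48.3, 43.2, 55.8, 63.1 and 32.8 CPM. It was lowest at 42 h and highest at 28 h, and its line was nearly flat (fitted change -0.08, SE 0.30, edgeR adjusted p = 0.844).

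At 42 h DLL1 and DLL4 stood beyond 2-fold above the 0 h mean, where 11.9% of the genes tested did. DLL4 itself was not among the genes tested. NOTCH1, NOTCH2, DLL3 and LFNG stood beyond 2-fold below the 0 h mean, where 19.8% did. On library totals the median gene stood at -0.24 (log2) in the 42 h library. With TMM factors, which bring that median to -0.01, NOTCH2 was no longer beyond 2-fold.

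Levels of different genes were compared per length, in FPKM (fragments scaled for transcript length and for library size). Summed over the 5 ligands, the level was 16.02 and 17.2 FPKM at 0 h, between 15.4 and 18.0 FPKM from 4 to 20 h, 25.0 FPKM at 28 h and 37.3 FPKM at 42 h. Over the 3 receptors the sum was 94.7 and 86.5 FPKM at 0 h, 123 FPKM at 4 h and 55.3 FPKM at 42 h. JAG1 made up 67.0% and 65.7% of the ligand sum at 0 h and 38.2% at 42 h, and DLL1 went from 11.5% and 14.7% to 56.6%. At 4 h JAG2 held 29.6% of it, against 8.9% and 9.6% at 0 h. NOTCH3 accounted for 57.1% and 64.7% of the receptor sum at 0 h and 80.7% at 42 h, and NOTCH1 for 24.9% and 21.1% at 0 h and 7.0% at 42 h. The order of the ligands therefore differed between the ends of the series, with JAG1 first at 0 h and DLL1 first at 28 and 42 h, whereas NOTCH3 stayed first among the receptors.

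**Figure D2:**
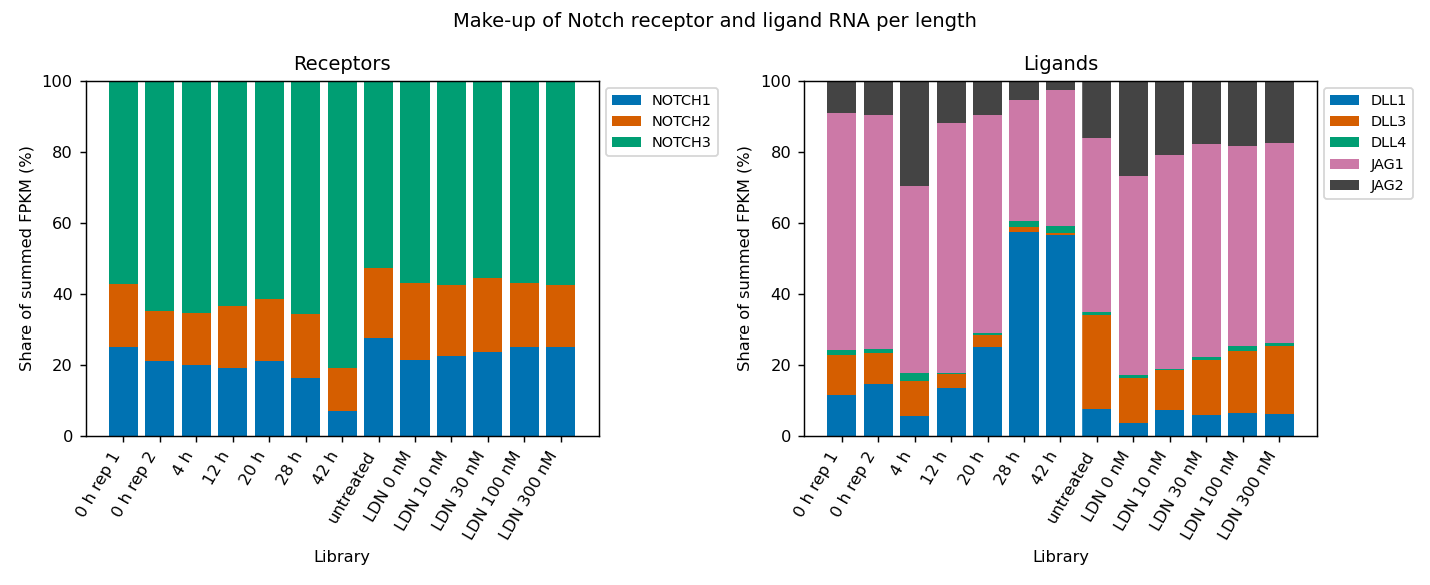
Stacked bars give the share (%) of each receptor (left) and ligand (right) in the summed FPKM of its group, with 1 bar for each of the 13 libraries and the time series left of the dose response. DLL1 takes 57.4% of the ligand sum at 28 h and 56.6% at 42 h, and NOTCH3 takes 80.7% of the receptor sum at 42 h.

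The dose response asked how the same genes stood at 5 h when BMP signaling was set to different levels. Across the 5 libraries with BMP4, a line over the ordered doses (0 to 300 nM coded as 0 to 4) was fitted with edgeR to 14907 genes, 9 of the 10 Notch genes among them. NRARP, NOTCH1, NOTCH3, DLL3 and DLL1 rose with LDN, that is with less BMP signaling, making 5 of 9 where 10.4% of all genes rose. JAG2 was the 1 gene that fell, where 10.9% of all genes fell. The median fitted change of the 9 genes was 0.17 (log2, 0 to 300 nM), beside -0.0027 over all genes. Over the same doses the summed level of the 5 amnion-like markers went from 165 to 9.77 CPM, with 6.41 CPM in untreated cells. That of the pluripotency markers lay between 3353 and 3582 CPM and at 2949 CPM in untreated cells. Most of the latter sum was POU5F1, at 2319 to 2431 CPM with BMP4. From 0 to 300 nM PRDM14 went from 14.6 to 76.3 CPM, SOX2 from 338 to 428 CPM and TDGF1 from 519 to 628 CPM. NANOG had 90.6 CPM at 0 nM and 93.4 CPM at 300 nM. The part of these markers in the results was not tested.

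NRARP had 34.1, 39.5, 42.6, 48.1 and 50.7 CPM from 0 to 300 nM, against 51.2 CPM in untreated cells. Each dose lay above the one before it, and the level at 300 nM was 0.991 of that in untreated cells (95% counting interval, 0.910 to 1.08). The fitted rise was 0.58 (SE 0.06, edgeR adjusted p = 3.2e-05). NOTCH1 had 78.5, 92.8, 101, 107 and 109.6 CPM from 0 to 300 nM, against 132 CPM in untreated cells. It too was higher at each further dose, but at 300 nM it was 0.832 of the untreated level (0.788 to 0.879), with a fitted rise of 0.47 (SE 0.06, edgeR adjusted p = 0.000219).

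NOTCH3 ranged from 194 CPM at 0 nM through 206, 206 and 215 CPM to 218 CPM at 300 nM, with 216 CPM in untreated cells. This span was small, 1.12-fold from end to end, yet steady enough to pass (fitted rise 0.17, SE 0.04, edgeR adjusted p = 0.0109). DLL3 had 2.19, 2.24, 2.77, 3.02 and 3.68 CPM from 0 to 300 nM and 5.26 CPM in untreated cells (fitted rise 0.80, SE 0.22, edgeR adjusted p = 0.0222). DLL1 had 1.25, 1.79, 1.88, 2.35 and 2.32 CPM and 3.08 CPM in untreated cells (fitted rise 0.84, SE 0.28, edgeR adjusted p = 0.0486). Both Delta ligands were lowest without LDN and highest in the untreated library. Of these calls, that of DLL1 was kept by the fewest alternative fits, 2 of 13, and was lost without any single dose (edgeR adjusted p = 0.0599 to 0.368). DLL3 did not pass without 0, 10 or 300 nM (edgeR adjusted p = 0.0619 to 0.208), nor NOTCH3 without 0 or 100 nM (edgeR adjusted p = 0.0793 and 0.0513), whereas NRARP and NOTCH1 passed without each dose in turn.

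JAG2 had 10.4, 9.86, 7.78, 7.33 and 7.69 CPM from 0 to 300 nM, and 6.92 CPM in untreated cells. The libraries with 0 and 10 nM were the highest. The fitted fall was -0.50 (SE 0.14, edgeR adjusted p = 0.0228), and it was lost without 0, 10 or 100 nM (edgeR adjusted p = 0.0651 to 0.154). NOTCH2 (97.2 to 103 CPM with BMP4), JAG1 (30.9 to 33.6 CPM) and LFNG (19.7 to 23.9 CPM) passed no test over dose (edgeR adjusted p = 0.744, 0.654 and 0.575). Untreated cells had 118 CPM of NOTCH2, 30.5 CPM of JAG1 and 26.1 CPM of LFNG. NOTCH2 and LFNG were thus highest in the untreated library, and at 300 nM they stood at 0.820 and 0.754 of that level. The untreated library lacked both BMP4 and IWP2, and the part of either in this gap was not tested. DLL4, with 5 to 16 counts a library, could not be resolved at this depth.

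**Figure D3:**
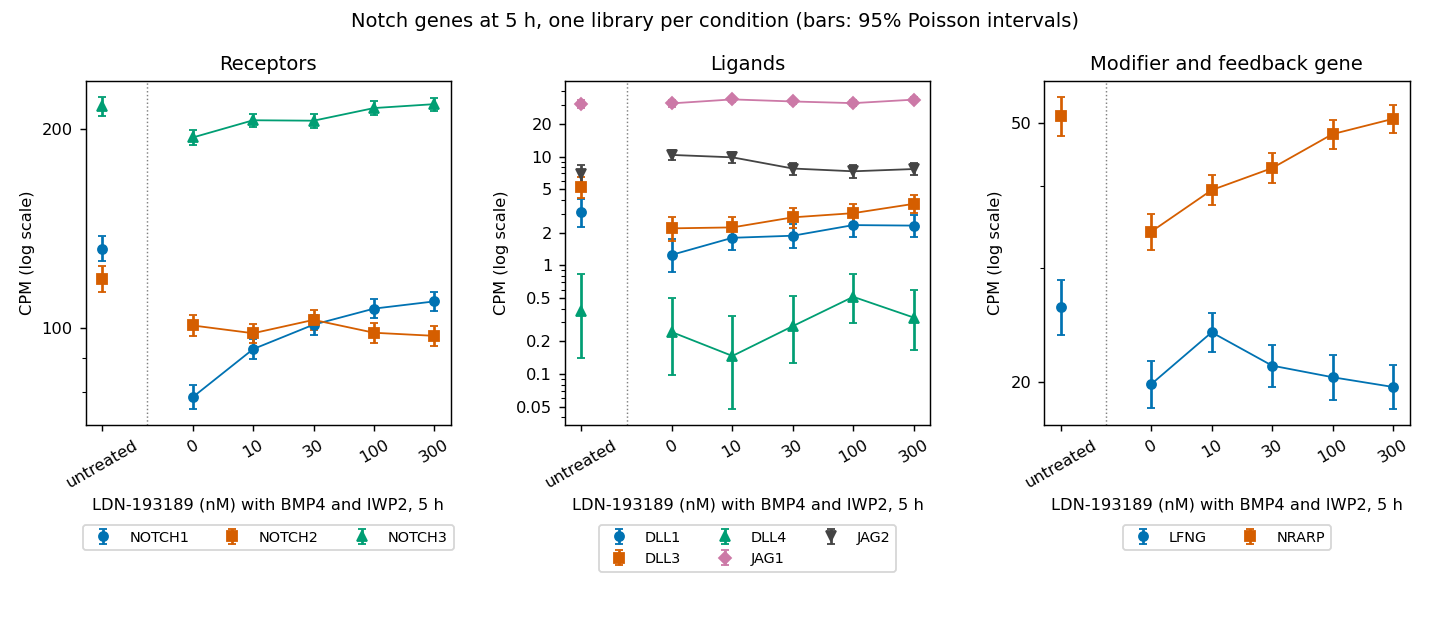
CPM (log axis) at 5 h in untreated cells and with BMP4, IWP2 and 0 to 300 nM LDN; each point is 1 library and each bar its 95% exact Poisson counting interval. NRARP climbs from 34.1 to 50.7 CPM and NOTCH1 from 78.5 to 109.6 CPM with dose, whereas JAG2 goes from 10.4 to 7.69 CPM.

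RefSeq promoter windows (GRCh38.p14, 250 bases before to 50 after a start site) were at hand for 8 of the 10 genes, 9 windows in all, and were searched on both strands. Of the 6 genes called over dose, NRARP, NOTCH1, NOTCH3 and JAG2 had a window and DLL1 and DLL3 had none. SMAD proteins are known to bind short GC-rich elements, and the stretches shown were chosen because they hold a match to a searched element. The palindrome GTCTAGAC, a SMAD binding element, was in 0 of the 9 windows and in 0.202% of 35116 windows genome-wide. The GC-rich element GGCGCC, added after the values had been seen, was in 3 of the 9, those of NOTCH1, NRARP and JAG2, and not in that of NOTCH3. It occurs in 19.2% of all windows and in 31.8% of the 19945 windows at least as rich in GC as the poorest of the 9, so 3 of 9 is near that background. TGGGAA, the core of the RBPJ site, was in 24.0% of all windows and among these genes in both LFNG windows. The stretches below are written 5′ to 3′ on the strand of the gene with the match in capitals (for LFNG the match reads TTCCCA, the other strand of the core), and a match describes letters and not a bound site.
NOTCH1, chr9:136546219-136546278: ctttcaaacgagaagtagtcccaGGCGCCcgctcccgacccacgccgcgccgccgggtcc
NRARP, chr9:137302272-137302331: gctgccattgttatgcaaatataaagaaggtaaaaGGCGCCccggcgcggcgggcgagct
JAG2, chr14:105168857-105168956: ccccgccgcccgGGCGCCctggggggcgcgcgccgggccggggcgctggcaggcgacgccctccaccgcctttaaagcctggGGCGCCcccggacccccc
LFNG, chr7:2512505-2512534: gccttctctctgcaaatccTTCCCAgacta

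BMP4 with IWP2 was also set against untreated cells at 5 h, a comparison of 1 library with 1 library in which BMP4 and IWP2 cannot be told apart. None of the 10 genes was beyond 1.5-fold higher with BMP4, where 15.6% of the genes tested (DLL4 not among them) were. Of the 10, 4 were beyond 1.5-fold lower, where 5.73% of the genes tested were. These were DLL1 at 0.407 of the untreated level (95% counting interval, 0.257 to 0.640), DLL3 at 0.417 (0.295 to 0.586), NOTCH1 at 0.596 (0.561 to 0.633) and NRARP at 0.665 (0.605 to 0.731). JAG2, at 1.498-fold (1.198 to 1.88), lay just short of the limit on the other side. The untreated library had the fewest counts and the highest mitochondrial share of the dose response, and the part of these in the ratios was not tested.

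The 4 h library of the time series offers a second early view, with other library chemistry and its own 0 h baseline. There JAG2 and LFNG stood beyond 1.5-fold above the 0 h mean, where 13.7% of the genes tested did. So did DLL4, with 41 counts at 4 h, which was not among the genes tested. DLL1 stood beyond 1.5-fold below that mean, where 2.82% did. DLL1 was low and JAG2 high in both experiments. NRARP and DLL3, lower at 5 h, were at 0.898 and 0.929 of the 0 h mean at 4 h. Against the separate 0 h libraries these 4 h ratios were 0.822 and 0.991 for NRARP and 0.872 and 0.994 for DLL3. Both genes at 4 h were thus close to the lower 0 h library. NOTCH1 was 1.202-fold the 0 h mean at 4 h and 1.06- and 1.39-fold the separate 0 h libraries, although it was 1.68-fold below untreated cells at 5 h. LFNG was 1.75-fold the 0 h mean at 4 h but 1.31-fold below untreated cells at 5 h. The experiments differ in baseline, hour and library preparation, which cannot be told apart, and the difference between them was not tested.

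**Figure D4:**
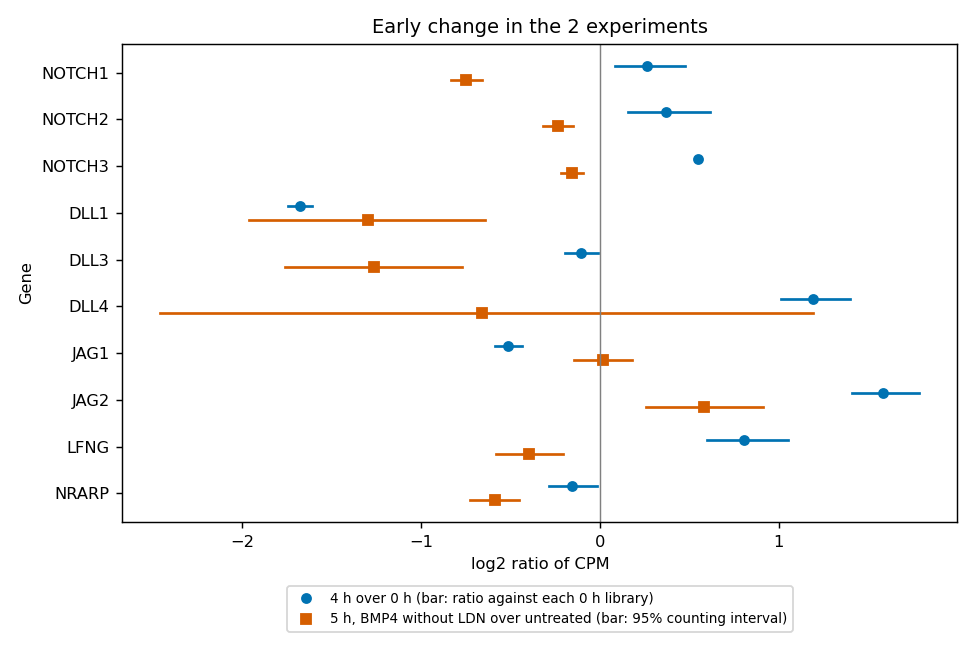
log2 ratio of CPM for each Notch gene at 4 h over the 0 h mean (circles; bars run between the ratios to each 0 h library) and at 5 h with BMP4 over untreated cells (squares; bars are 95% counting intervals). DLL1, DLL3 and NRARP lie left of 0 and JAG2 right of it in both, whereas NOTCH1, NOTCH2, NOTCH3, DLL4, JAG1 and LFNG lie on opposite sides.

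The other steps of the pathway were read from 8 lists with 48 genes in all. Over hours 42 of them were tested, of which 10 rose, 7 fell and 25 did not pass, with a median fitted change of 0.21, where 19.2% of all genes rose and 17.5% fell. Over dose 40 were tested, of which 6 rose, 6 fell and 28 did not pass, with a median of -0.02, where 10.4% of all genes rose and 10.9% fell.

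Of the 9 genes for cleavage of the receptor, 4 rose over hours and none fell. FURIN, which makes the first cut in the receptor, rose by 2.85 (SE 0.77, edgeR adjusted p = 0.0223), and ADAM17, a protease of the surface cut, rose by 0.94 (SE 0.15, edgeR adjusted p = 0.00261). APH1A, a γ-secretase subunit, rose by 0.63 (SE 0.21, edgeR adjusted p = 0.0474). Over LDN dose FURIN fell by 1.48 (SE 0.07, edgeR adjusted p = 3.4e-08) and ADAM10 by 0.36 (SE 0.04, edgeR adjusted p = 9.1e-05), and APH1B rose by 0.44 (SE 0.09, edgeR adjusted p = 0.00342). FURIN thus rose with time under BMP4 with IWP2 and fell with the dose of the BMP receptor inhibitor.

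Of the 4 genes for ubiquitination of ligands, 2 rose over hours and 1 fell. NEURL1 rose by 1.86 and MIB2 by 1.202 (edgeR adjusted p = 0.0379 and 0.00522), and NEURL1B fell by 2.38 (edgeR adjusted p = 0.00268). NEURL1B also rose with LDN, by 0.69 (SE 0.16, edgeR adjusted p = 0.00982). Of the other ligands, DLK1 rose by 2.301 and DNER by 2.15 over hours while CNTN1 fell by 0.99 (edgeR adjusted p = 0.00136, 0.0411 and 0.0172), and none of the 3 tested over dose passed. DNER went up and partly down again, from 4.43 and 4.64 CPM at 0 h to 20.5 CPM at 28 h and 9.36 CPM at 42 h. Its curve passed (edgeR adjusted p = 0.000116). DLK1 was rare, at no more than 4.74 CPM. NEURL1 was rarer still, at no more than 2.40 CPM (28 h), with 1.47 CPM at 42 h.

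Among enzymes that add sugars to the receptor, RFNG, a fringe enzyme like LFNG, rose over hours by 0.74 (SE 0.23, edgeR adjusted p = 0.0362) and over dose by 0.26 (SE 0.08, edgeR adjusted p = 0.0413). RFNG and LFNG therefore had fitted lines of opposite sign over hours. For RFNG only the 42 h library (46.3 CPM) lay above the 0 h pair (26.7 and 36.4 CPM). Of 8 receptor regulators, the Deltex gene DTX4 had fitted lines that rose over hours by 1.64 and over dose by 0.57 (edgeR adjusted p = 0.0166 and 0.000133). Its level was first lower, at 0.728, 0.689 and 0.888 of the 0 h mean at 4, 12 and 20 h. It was then 1.13-fold that mean at 28 h and 2.84-fold at 42 h. NUMBL, a relative of the Notch antagonist NUMB, fell over hours by 1.36 (edgeR adjusted p = 0.00561). DTX1 and FBXW7 fell over dose by 0.92 and 0.40 (edgeR adjusted p = 7.4e-05 and 0.00211). NOTCH2NLC was the 1 relative of NOTCH2 that fell over hours, by 1.31 (edgeR adjusted p = 0.0259).

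In the nuclear complex, RBPJ fell over hours by 1.48 (SE 0.31, edgeR adjusted p = 0.00717) and MAML2 by 2.03 (SE 0.45, edgeR adjusted p = 0.0102), 2 of 7 with none rising. RBPJ measured 253 and 182 CPM at 0 h and 72.2 CPM at 42 h, lower at each later time than the one before. With LDN it rose from 158 to 216 CPM (fitted rise 0.48, SE 0.04, edgeR adjusted p = 5.8e-06). RBPJ thus shared with NOTCH1, DLL3 and NEURL1B a fall over hours and a rise over LDN dose. The share of all genes with both calls was not computed. The pluripotency markers SOX2, PRDM14 and TDGF1 were also lower at 42 h than at 0 h and higher at 300 nM than at 0 nM. POU5F1 did neither, and NANOG was lower at 42 h but had 90.6 and 93.4 CPM at 0 and 300 nM.

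Of the HES and HEY targets, HES1 and HEY1 fell with LDN, from 35.7 to 12.7 CPM and from 30.2 to 2.65 CPM (fitted changes -1.49 and -3.58, edgeR adjusted p = 1.6e-05 and 5.4e-09), and HEY2 rose from 7.86 to 14.5 CPM (fitted rise 0.91, edgeR adjusted p = 0.00104). At 4 h HES1 stood 5.60-fold and HEY1 17.4-fold above the 0 h mean and HEY2 3.86-fold below it. From 4 to 42 h HES1 stayed at 5.03- to 9.04-fold that mean, HEY1 at 13.3- to 29.2-fold and HEY2 at 0.259 to 0.427 of it. The lines of the 3 genes over hours did not pass (edgeR adjusted p = 0.163, 0.230 and 0.343). The curve passed for HES1 (edgeR adjusted p = 0.0103) but not for HEY1 or HEY2 (edgeR adjusted p = 0.107 and 0.0699). HEYL, rare at no more than 5.56 CPM in the time series, fell by 2.16 along a line (edgeR adjusted p = 0.0217).

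**Figure D5:**
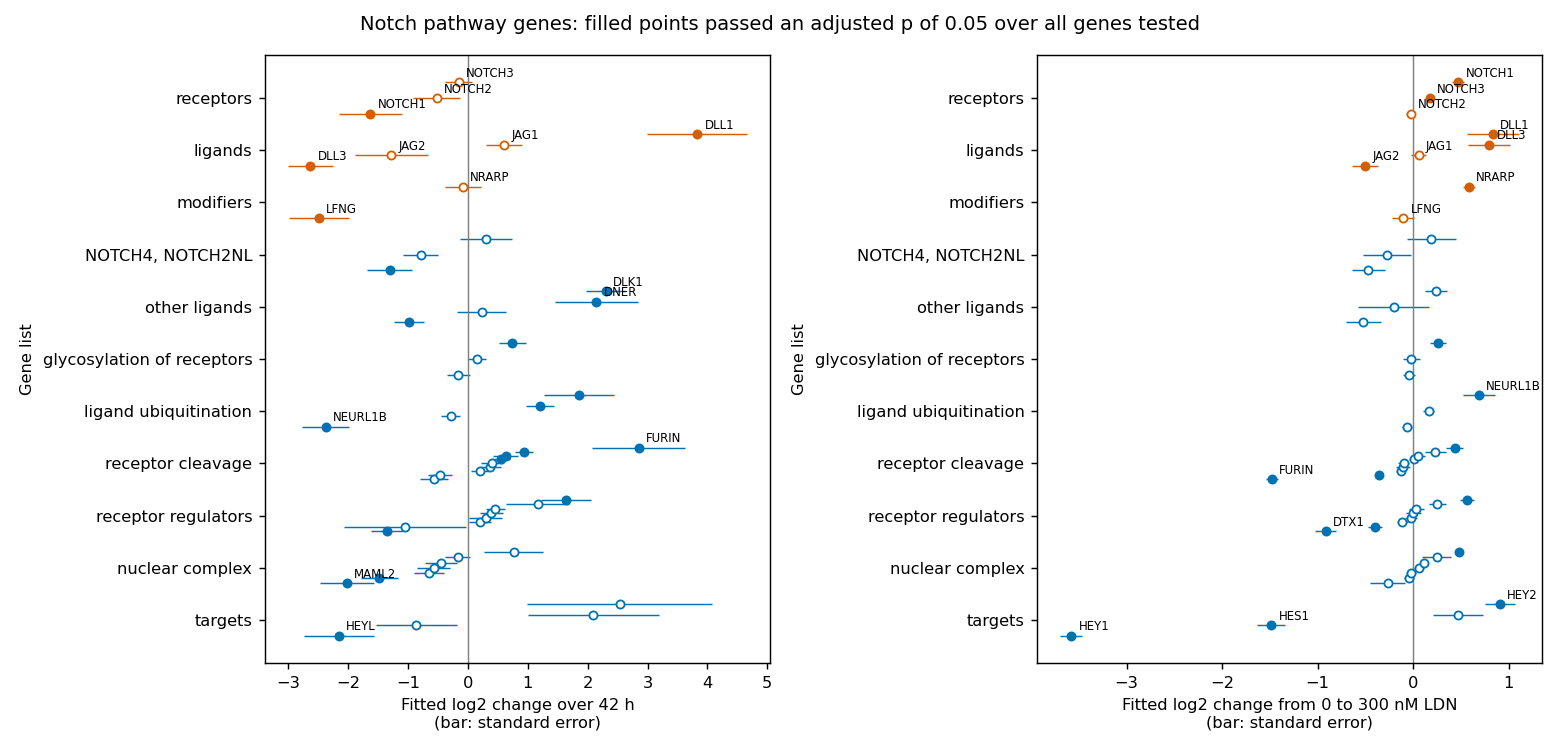
Fitted log2 change over 42 h (left) and from 0 to 300 nM LDN (right) for the Notch genes (orange) and the other pathway genes (blue), by list; bars are standard errors, and filled points passed an edgeR adjusted p of 0.05 over all genes tested. DLL1 at 3.83 is the point farthest right over hours, and HEY1 at -3.58 is the point farthest left over dose.

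Genes with the most similar profile were sought among 9581 genes over all 13 libraries, centered within each experiment, for the 4 tested Notch genes with the largest change at 42 h. These correlations describe the libraries, which share depth and time, and carry no test. DLL1 was most like RIPOR2 (Pearson r = 0.969), ANXA3 (0.966) and SH3BGRL2 (0.959). LFNG was most like HAPLN3 (0.977), TTYH1 (0.976) and ARNT2 (0.974). DLL3 was most like AKAP1 (0.979), NR6A1 (0.975) and DBNDD1 (0.975), and NOTCH1 was most like RTN4RL2 (0.985), FOXRED2 (0.982) and FHIP1A (0.977).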

How the data were processed

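Bulk RNA-seq of 13 libraries was used. The authors trimmed reads, mapped them with STAR 2.7.8a to GRCh38 and quantified genes with RSEM 1.3.3, per the submitters' processing notes and the methods of the study. The deposited values are expected counts from RSEM, given as whole numbers without scaling for depth. The deposited FPKM tables hold values that the authors scaled for length and depth, and they served for levels between genes and for an alternative. Strandedness is not given in the sources used here, and SMAD4 levels were not used, so that the ordered LDN dose stood in for signaling.

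CPM was computed on library totals. Ratios used to apply the 1.5- and 2-fold limits had 0.1 CPM added to both sides, and printed folds had none. Trends used the quasi-likelihood test of edgeR 4.0.16 (TMM factors, a minimum mean of 1 CPM, two-sided, Benjamini-Hochberg adjustment over all genes tested, threshold 0.05) over hours in 7 libraries, over hours and hours squared in the same libraries, and over dose steps in 5 libraries. Error was estimated from the scatter around the fit, since no later time and no dose was replicated. Intervals are at 95%. DESeq2 1.42.0 and limma 3.58.1, the latter on log2(FPKM + 0.1) and log2(FPKM + 1), were alternatives, beside other scalings, minimums, time and dose scales and left-out libraries. The fits were tested on simulated data. Computation was done in R 4.3.3 and in Python 3.11.15 with pandas 2.3.3, numpy 2.4.6, matplotlib 3.10.9 and scipy 1.17.1.

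The 10 genes, the lists and the tests were chosen with earlier results of these data known. All 10 genes were named whether or not they passed, as were genes of the pathway lists called in either line, up to 3 per list and trend. Gene coordinates are from GENCODE v44 and promoter windows from RefSeq. Profile likeness was the Pearson r of log2(CPM + 0.1) among genes whose mean reached 10 CPM in both tables.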

Additional observations from a re-analysis of the deposited data

How the results depend on the processing

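Precision is limited by single libraries at each dose and later time. No paired analysis was possible because only 0 h has replicates, so that the groups compared share fewer than 2 replicate numbers. Over hours, no gene rose and 1 (DLL3) fell on a log2 scale of hours, instead of 1 and 3. Leaving out single libraries gave 1 rising gene (DLL1) each time, 1 to 3 falling and 3 to 5 curved calls, the lowest without 42 h, where the fitted change of LFNG was -1.70 (edgeR adjusted p = 0.0696). Over dose, DESeq2 called 3 rising and 0 falling genes, limma 1 and 0 with either pseudocount, and with the untreated library added as a further step 0 fell; without single doses 2 to 4 rose and 0 to 1 fell. NRARP passed in 14 of 14 alternatives and NOTCH1 in 12 of 14, against 9 for NOTCH3, 8 for DLL3, 7 for JAG2 and 2 of 13 for DLL1. Genes beyond 1.5-fold below 0 h at 4 h were 2 with TMM factors, 2 with DESeq2 size factors and 1 to 2 without single 0 h libraries, where JAG1 joined DLL1. The cause was not tested. Other counts stayed within 1.5 times.

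Signs that turned belonged to genes that had not passed. Over hours, NRARP was 0.0031 without a filter, and NOTCH3 was 0.0054 per log2 unit of hours. Leaving out single libraries gave -0.33 to 0.46 for NRARP, -0.27 to 0.026 for NOTCH3, -0.82 to 0.34 for NOTCH2 and 0.79 to -0.11 for JAG1. NRARP was positive without 42 h or without 0 h replicate 2 (0.036), and the other 3 turned without 42 h. Over dose, NOTCH2 was 0.17 and LFNG 0.16 with the untreated library added, and leaving out single doses gave -0.043 to 0.0044 for NOTCH2, -0.0237 to 0.103 for JAG1 and -0.36 to 0.0030 for LFNG. The cause was not tested. Over all genes, 5865 were called over hours but 3413 on log2 hours and 3343 without 42 h; library totals gave 2121 rising and 4069 falling in place of 3072 and 2793, and limma 2102 and 3750 or 2110 and 3585. The curve called 7625 genes and 3794 without 42 h. Over dose 3180 were called, with limma 1107 and 1106, without 0 nM 2005 and without 300 nM 2107.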
